A study of Mus musculus with 2 samples.

Results

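The genes described here encode aldehyde, alcohol and steroid dehydrogenases and their relatives, enzymes that move hydrogen between NAD(P) cofactors and alcohol, aldehyde or ketone groups. They were chosen by gene symbol, as the numbered members of 7 stems: Aldh (aldehyde dehydrogenases), Adh (alcohol dehydrogenases), Akr (aldo-keto reductases), Dhrs and Rdh (short-chain and retinol dehydrogenases), Hsd11b and Hsd17b (hydroxysteroid dehydrogenases). Akr1d1, Hsd17b4 and Hsd17b7 were left out by the rule. This gave 72 genes of the 18193 that had a probe set annotated to 1 gene on the array. The rule uses symbols and no measured ratio, but it was set with earlier results of these data known. Each gene was read from its brightest probe set.

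In liver these families share substrates. Alcohol dehydrogenases oxidise ethanol and retinol to aldehydes, and aldehyde dehydrogenases carry the aldehydes on to acids, retinoic acid among them. Aldo-keto reductases and several Dhrs and Rdh enzymes work mainly in the reducing direction, from aldehyde or ketone back to alcohol. The Hsd enzymes interconvert active and less active forms of glucocorticoids, androgens and estrogens, and some act on fatty acids.

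The antagomir-122 group was mice injected with antagomir-122 at 80 mg/kg per day on 3 days, and its control was mice given the scrambled oligonucleotide mm-antagomir-122 at the same dose and times. An antagomir is a chemically modified oligonucleotide that is complementary to a microRNA, here miR-122, which is abundant in hepatocytes. Livers were taken 24 h after the last injection, RNA from 3 livers was combined in each group, and each pool was read on 1 single-colour array. Strain, age and sex are not given in the sources used here.

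With 1 array per group no error between animals could be formed, so the groups were compared without a test or p-value. A threshold of 1.5-fold is used to describe sizes. All ratios are log2 of the antagomir-122 signal over the mm-antagomir-122 signal. Disagreement between the brightest and the second brightest usable probe set of a gene serves as a scale for measurement error. Its SD, expressed per probe set, was 0.28 on the log2 scale over 3860 genes with a second usable probe set. It was 0.15 over the 15 members with one, and further probe sets of a gene did not enter it. This SD holds no difference between animals and no array error that both probe sets share. The median signals of the arrays were 172 on the antagomir-122 array and 156 on the mm-antagomir-122 array.

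Mean signals here are geometric means, taken on the log2 scale over both arrays. A gene was counted as measured when its brightest probe set had a mean signal of at least 238, called the floor below. This floor was the 60th percentile over probe sets other than controls. Of the 72 members 53 were above it, which were 14 of 20 Aldh genes, 4 of 7 Adh, 12 of 14 Akr, 7 of 9 Dhrs, 9 of 11 Rdh, 1 of 2 Hsd11b and 6 of 9 Hsd17b. The members nearest to the floor were Akr1b10, with a mean signal of 275, just inside, and Aldh18a1, with 227, just outside.

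Most members differed little between the pools. Of the 53 measured members, 0 were at least 1.5-fold higher in the antagomir-122 pool, where 5.12% of all 10003 measured genes were. The brightest 3334 measured genes held 42 of the members, and 2.58% of the 3292 other genes there were that much higher. With so few members, the count of 0 is not read as a result about the families. The lower side held 3 members past 1.5-fold (5.66%), beside 2.62% of all measured genes, a gap of too few genes to be read as a result about the families. These 3 were Aldh3b1, Rdh11 and Dhrs4, and all other members lay between -0.46 and 0.34 on the log2 scale.

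The members as a whole lay slightly low. As deposited, 37 of 53 had a ratio below 0, against 49.6% of all measured genes, and their median was -0.13, against 0.0027 for all measured genes. Ratios ran lower among bright genes in general, and 42 of the 53 members were among the brightest 3334 measured genes. There 71.4% of the members and 59.5% of the 3292 other genes were below 0, with medians of -0.12 for the members and -0.05 for the other genes.

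The direction depended on how the arrays were scaled. The members' median was -0.07 after quantile normalization (36 below 0, against 50.4% of all genes) and -0.08 after a correction for the trend with signal (34 below 0, against 49.6%). It turned to 0.15 when the arrays were scaled on the spiked hybridization controls, which adds 0.27 to every ratio. On that scale 13 members were below 0, against 15.9% of all genes, whose median was then 0.28. In each of these scalings the members' median lay under that of all measured genes. The hybridization control scale could not change this order, since it adds the same value to every ratio. Directions below are relative to the bulk of genes, as deposited.

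**Figure D1:**
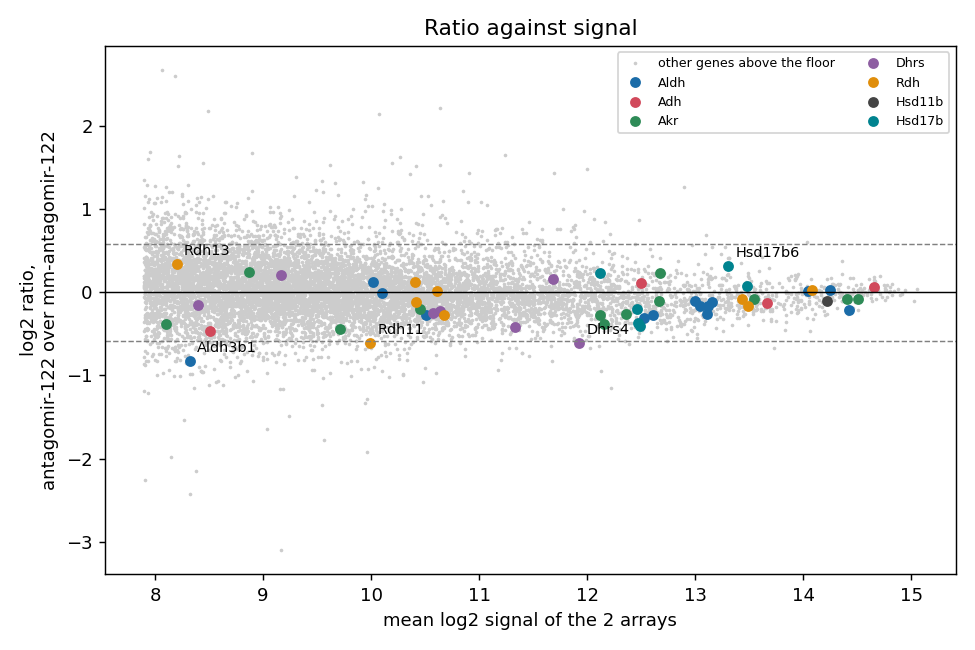
Log2 ratio (antagomir-122 over mm-antagomir-122, vertical axis) against the mean log2 signal of both arrays (horizontal axis) for 10003 measured genes, with the 53 members coloured by stem and dashed lines at 1.5-fold. Rdh11, Dhrs4 and Aldh3b1 lie below the lower line, and no member lies above the upper one.

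The cell types in the pools differed in their markers. Hepatocyte markers, of which 12 were measured, had a median of -0.01 and summed signals of 261837 in the antagomir-122 pool and 259842 in the mm-antagomir-122 pool. Most of them, Alb and Apoa1 included, read above 16000 on both arrays, near the top of the scale. A difference can be hidden there, so these values do not show an equal share of hepatocytes. Markers of leukocytes read higher with antagomir-122. For neutrophils, 5 of the 6 measured markers passed 1.5-fold upwards, with summed signals of 8013 in the antagomir-122 pool against 2451 in the mm-antagomir-122 pool. The other one, Elane, had -0.31. Mpo (399.6 with antagomir-122 against 164.2 with mm-antagomir-122) and Ltf (367.6 with antagomir-122 against 197.8 with mm-antagomir-122) were above the floor on the antagomir-122 array alone. They counted as measured through the array on which they were high. All 11 measured Kupffer cell and macrophage markers were above 0, with sums of 73333 with antagomir-122 against 55460 with mm-antagomir-122, and so were all 7 lymphocyte markers, with sums of 6944 with antagomir-122 against 4267 with mm-antagomir-122. The lymphocyte marker Cd79a (279.5 with antagomir-122 against 207.5 with mm-antagomir-122) was also above the floor on the antagomir-122 array alone. The median was 0.06 for 9 endothelial markers and 0.13 for 11 stellate cell and fibroblast markers. Past 1.5-fold on the lower side were Ass1 of hepatocytes, on a dim probe set (245 with antagomir-122 against 531 with mm-antagomir-122), and Tek of endothelium (386 with antagomir-122 against 641 with mm-antagomir-122). The 1 measured cholangiocyte marker, Tspan8, had 0.31. Of the cholangiocyte markers under the floor, Epcam read 37.1 with antagomir-122 against 834 with mm-antagomir-122, which is above the floor on the mm-antagomir-122 array alone. Krt19, Sox9 and Cftr also read lower with antagomir-122 and Krt7 higher (73.2 with antagomir-122 against 6 with mm-antagomir-122), with both signals under the floor. No marker was at 0 on either array, but 10 were under the floor by their mean signal: Camp of neutrophils, Cd163 of macrophages, Cd3e and Cd3g of T cells, Vwf of endothelium, and Cftr, Epcam, Krt7, Krt19 and Sox9 of cholangiocytes. In whole liver, fewer cells of a type and less RNA per cell cannot be told apart, and the part of the leukocyte difference in the members' ratios was not tested.

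Rdh11 was the member for which both measured probe sets were past 1.5-fold. It encodes an enzyme of the endoplasmic reticulum that reduces retinaldehyde to retinol, and in mouse it has been described as a gene regulated by SREBP, the transcription factors of sterol synthesis. Its signals were 825 in the antagomir-122 pool and 1257 in the mm-antagomir-122 pool on the brighter probe set, a 1.52-fold lower value (log2 -0.61). The second probe set had 738 with antagomir-122 against 1135 with mm-antagomir-122 (log2 -0.62). Rdh11 kept its side of the threshold with quantile normalization (-0.61) and with the signal-trend correction (-0.61). On the hybridization control scale it was -0.33.

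Dhrs4 encodes a peroxisomal carbonyl reductase that also reduces retinaldehyde. Its brighter probe set read 3155 in the antagomir-122 pool and 4800 in the mm-antagomir-122 pool, which is 1.52-fold lower (log2 -0.61), and the second read 3086 with antagomir-122 against 4076 with mm-antagomir-122 (log2 -0.40). Both probe sets carry the suffix _a, for several transcripts of the gene. The mean of both was -0.50, and Dhrs4 was also under 1.5-fold with quantile normalization (-0.56) and with the signal-trend correction (-0.55).

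Aldh3b1, a membrane-bound enzyme acting on lipid-derived aldehydes, had signals of 240 in the antagomir-122 pool and 427 in the mm-antagomir-122 pool, 1.78-fold lower (log2 -0.83). The antagomir-122 signal lies just above the floor of 238, and no second probe set was measured. Aldh3b1 was the lowest of the 53 members as deposited, after quantile normalization (-0.92) and after the signal-trend correction (-0.91). On the hybridization control scale, which keeps the order of the members, it had -0.56.

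The promoter windows of these 3 genes are shown because they were the members past 1.5-fold. Each window of 300 bases spans an annotated start, with most of its length before it, as given by RefSeq on GRCm38.p6, and Rdh11 has 2 annotated starts. Capitals mark every match, on either strand, to 4 short motifs: the CCAAT box (CCAAT), the E-box (CACGTG), the GC box (GGGCGG) and the TATA box (TATAAA). The windows are Rdh11 at chr12:79191806-79192105 (minus strand, first start), Rdh11 at chr12:79190912-79191211 (minus strand, second start), Dhrs4 at chr14:55478508-55478807 (plus strand) and Aldh3b1 at chr19:3929729-3930028 (minus strand).
Rdh11, first start: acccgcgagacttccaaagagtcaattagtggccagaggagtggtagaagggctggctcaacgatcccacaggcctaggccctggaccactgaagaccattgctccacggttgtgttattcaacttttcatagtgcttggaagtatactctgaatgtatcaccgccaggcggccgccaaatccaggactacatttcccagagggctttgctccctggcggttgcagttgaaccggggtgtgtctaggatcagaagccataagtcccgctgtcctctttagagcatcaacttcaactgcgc
Rdh11, second start: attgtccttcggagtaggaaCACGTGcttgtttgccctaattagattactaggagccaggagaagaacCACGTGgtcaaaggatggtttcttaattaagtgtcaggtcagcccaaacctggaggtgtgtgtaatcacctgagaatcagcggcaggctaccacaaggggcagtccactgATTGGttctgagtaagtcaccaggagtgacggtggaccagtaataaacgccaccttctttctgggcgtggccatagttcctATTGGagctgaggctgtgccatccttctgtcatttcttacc
Dhrs4: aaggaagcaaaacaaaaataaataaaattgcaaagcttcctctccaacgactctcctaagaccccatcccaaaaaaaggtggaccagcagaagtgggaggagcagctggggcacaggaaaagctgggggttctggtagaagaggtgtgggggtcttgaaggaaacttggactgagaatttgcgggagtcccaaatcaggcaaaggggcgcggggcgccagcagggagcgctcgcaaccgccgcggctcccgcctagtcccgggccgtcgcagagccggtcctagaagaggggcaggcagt
Aldh3b1: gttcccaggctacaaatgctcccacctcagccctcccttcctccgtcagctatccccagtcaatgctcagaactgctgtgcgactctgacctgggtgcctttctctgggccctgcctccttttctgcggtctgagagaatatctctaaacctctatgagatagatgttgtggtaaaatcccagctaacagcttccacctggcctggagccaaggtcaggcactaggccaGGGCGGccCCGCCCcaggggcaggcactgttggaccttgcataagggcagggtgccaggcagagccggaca

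The second Rdh11 window holds a pair of CCAAT boxes and a pair of E-boxes, and the first holds none of the 4 motifs. The E-boxes begin 230 and 182 bases before the start. The Dhrs4 window holds none, and the Aldh3b1 window holds a pair of GC boxes in opposite orientations, beginning 21 and 13 bases before the start. Thus no motif of the 4 was shared by all 3 genes. Of all 32851 mouse windows, 37.4% hold a CCAAT box, 7.15% the E-box, 35.7% the GC box and 13.6% the TATA box. Among the 55 windows found for 47 of the 53 measured members the shares were 58.2%, 9.09%, 30.9% and 12.7%, in the same order. These letter matches describe the sequence and do not mark binding sites.

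**Figure D2:**
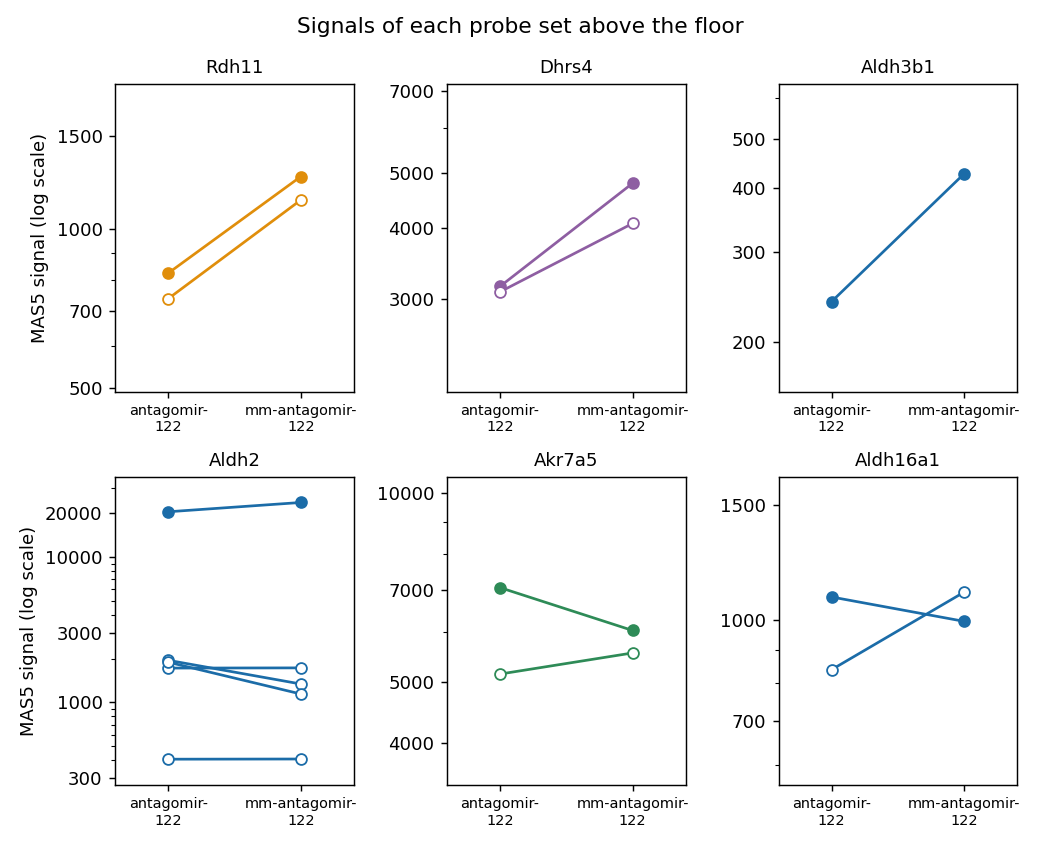
MAS5 signals (log scale) of every probe set above the floor in the antagomir-122 pool (left) and the mm-antagomir-122 pool (right) for 6 genes, with the brightest probe set filled and lines joining the readings of 1 probe set. Both probe sets of Rdh11 and of Dhrs4 are lower in the antagomir-122 pool, while those of Aldh2, Akr7a5 and Aldh16a1 do not run the same way.

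Retinoid enzymes lay on both sides of 0. Of 5 measured enzymes that reduce retinaldehyde to retinol, Rdh11 and Dhrs4 were lower, as given above, while Rdh14 had a log2 ratio of 0.01, Dhrs3 of 0.16 and Rdh13, a mitochondrial member, of 0.34. Rdh13 was the highest of all 53 members but was dim, at 330.5 in the antagomir-122 pool and 261.5 in the mm-antagomir-122 pool. Of 9 measured enzymes that oxidise retinol or other alcohols, 5 were below 0, against 49.6% of all measured genes, and the median was -0.08. Among them Rdh10, which oxidises retinol to retinaldehyde, had 1309 with antagomir-122 and 1418 with mm-antagomir-122 on its brighter probe set (-0.12) and 427 with antagomir-122 against 418 with mm-antagomir-122 on the other (0.03), so its direction was not settled. Rdh16 had -0.27 and Rdh5 0.12. Rdh7 had 17524 with antagomir-122 against 17209 with mm-antagomir-122 (0.03), and Rdh9 and Rdh16f2 had -0.16 and -0.08. The Rdh7, Rdh9, Rdh16 and Rdh16f2 genes are close copies, the probe set of Rdh9 can cross-hybridise, and their separate values are uncertain.

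Aldh1a1, which makes retinoic acid from retinaldehyde, had nearly the same signal in both pools, 16994 with antagomir-122 and 16877 with mm-antagomir-122 (log2 0.01). Such bright signals can hide a difference, since the scale flattens at its top. In all 8 members had signals above 16000 on both arrays (Adh1, Akr1a1, Akr1c6, Aldh1a1, Aldh1l1, Aldh2, Hsd11b1 and Rdh7), with ratios between -0.21 and 0.06. The other 45 members had a median of -0.16. The same limit holds for genes outside the stems above 16000 on both arrays, such as Rbp4, Ttr, Cyp2e1 and Cat, given below.

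Other retinoid genes, outside the stems, were nearly level. Of 9 measured genes in that list, 1 was at least 1.5-fold higher and 0 were lower, with a median of 0.02. The exception was Cyp26a1, the hydroxylase that degrades retinoic acid, at 2307 in the antagomir-122 pool and 1501 in the mm-antagomir-122 pool, a 1.54-fold higher value on 1 probe set. Rbp4, the plasma carrier of retinol, had 0.02, and Ttr, its binding partner, 0.04.

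The alcohol dehydrogenases split in direction. Adh1, the main ethanol-oxidising enzyme of liver, had signals of 26254 with antagomir-122 and 25219 with mm-antagomir-122 (log2 0.06). Adh4 had 5994 with antagomir-122 against 5560 with mm-antagomir-122 (0.11). Adh5, which clears formaldehyde bound to glutathione, had 12381 with antagomir-122 against 13539 with mm-antagomir-122 (-0.13). Adh7, known as the stomach form, had 309.5 with antagomir-122 against 427 with mm-antagomir-122 (-0.46), on a dim probe set. The stem's median of -0.04 was above 0 after the signal-trend correction (0.05), and its order of values rested on 4 genes.

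Of the alcohol and acetate genes outside the stems, 5 were measured and 1 was at least 1.5-fold lower. It was Acss2, the cytosolic enzyme that turns acetate into acetyl-CoA, at 3223 in the antagomir-122 pool and 6215 in the mm-antagomir-122 pool (1.93-fold lower), with a second probe set at 2714 with antagomir-122 against 4775 with mm-antagomir-122. Cyp2e1, the ethanol-inducible cytochrome, had a ratio of 0.06 and Cat, catalase, 0.05.

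Among the aldehyde dehydrogenases 11 of 14 were below 0, against 49.6% of all measured genes and 59.6% of the brightest 3334. The stem median was -0.16, and Aldh3b1 was the member past 1.5-fold. The stem median stayed below 0 with quantile normalization (-0.06) and the signal-trend correction (-0.09), and was 0.11 on the hybridization control scale. All 6 measured enzymes of amino acid and related breakdown were below 0 as deposited. They were Aldh4a1 of proline breakdown (-0.31), Aldh8a1 of tryptophan breakdown (-0.27), Aldh7a1 of lysine breakdown (-0.16), Aldh9a1 of carnitine synthesis (-0.11), Aldh6a1 of valine breakdown (-0.11) and Aldh5a1 of GABA breakdown (-0.0033). With the signal-trend correction Aldh5a1 was just above 0 (0.0018). Aldh4a1 read 5299 in the antagomir-122 pool against 6582 in the mm-antagomir-122 pool. Aldh7a1 read 7979 with antagomir-122 against 8936 with mm-antagomir-122 on its brighter probe set and 389 with antagomir-122 against 360 with mm-antagomir-122 on the second (0.11), so its probe sets disagreed. The second of Aldh8a1 had -0.20.

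Their partners in the same pathways were spread around 0. Of 12 measured amino acid and choline genes 7 were above 0, 1 was at least 1.5-fold higher and 0 were lower, with a median of 0.06. Abat, the transaminase that supplies the substrate of Aldh5a1, had 4625 in the antagomir-122 pool and 3067 in the mm-antagomir-122 pool (1.51-fold higher), while Aldh5a1 itself had 1093 with antagomir-122 against 1096 with mm-antagomir-122. Oat and Bhmt had 0.09 and -0.01.

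Aldh2, the mitochondrial enzyme that clears acetaldehyde, could not be given a direction. Its brightest probe set had 20468 with antagomir-122 and 23714 with mm-antagomir-122 (log2 -0.21), at the top of the range. A pair of dimmer probe sets had 0.54 (1946 with antagomir-122 against 1336 with mm-antagomir-122) and 0.73 (1888 with antagomir-122 against 1140 with mm-antagomir-122), and the other pair read 1720 with antagomir-122 against 1725 with mm-antagomir-122 and 406 with antagomir-122 against 407 with mm-antagomir-122. The mean over its 5 probe sets was 0.21. Aldh16a1 had 1084 with antagomir-122 against 995 with mm-antagomir-122 on its brighter probe set (0.12) and 840 with antagomir-122 against 1103 with mm-antagomir-122 on the other (-0.39).

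The remaining aldehyde dehydrogenases were within 1.5-fold of the control. Aldh1b1, a second mitochondrial form, had -0.28, and Aldh3a2, the fatty aldehyde dehydrogenase of the endoplasmic reticulum, also had -0.28. Aldh1a7, a close relative of Aldh1a1, had -0.16. The folate enzyme Aldh1l1 had 19684 with antagomir-122 and 19293 with mm-antagomir-122 (0.03), and 0.25 on a dimmer probe set. None of the 5 measured folate genes outside the stems was past 1.5-fold, and their median was -0.02. Gnmt had -0.02 and Ftcd -0.25.

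Of the aldo-keto reductases 10 of 12 were below 0, against 49.6% of all measured genes and 59.6% of the brightest 3334. None was past 1.5-fold, and the median was -0.15. Akr1a1 and Akr1c6 were just above 0 with the signal-trend correction (0.0040 and 0.01). The stem median was -0.13 with quantile normalization and -0.11 with the signal-trend correction, but 0.12 on the hybridization control scale. The lowest was Akr1b8, of the aldose reductase group, at 722 in the antagomir-122 pool and 979 in the mm-antagomir-122 pool (-0.44). Akr1b10 had 241 with antagomir-122 against 314 with mm-antagomir-122 (-0.38), close to the floor.

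Within the Akr1c group the values ran from -0.38 to 0.25. Akr1c19 had 3984 with antagomir-122 and 5193 with mm-antagomir-122 (-0.38). Akr1c12 and Akr1c13 each had -0.27, and a probe set annotated to both had 6734 with antagomir-122 against 8555 with mm-antagomir-122 (-0.35). Their transcripts are nearly identical, so these 3 readings are not independent. Akr1c20 had -0.11, and the hydroxysteroid dehydrogenases Akr1c14 and Akr1c6 each had -0.08, the second at 22664 with antagomir-122 and 23911 with mm-antagomir-122. Akr1c21, also a hydroxysteroid dehydrogenase, had 509 with antagomir-122 against 430 with mm-antagomir-122 (0.25).

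Akr1a1, the aldehyde reductase used in mouse for making ascorbate, had signals of 21064 with antagomir-122 and 22327 with mm-antagomir-122 (-0.08), and its 4 probe sets lay between -0.10 and -0.05. Akr1e1 had -0.20. Akr7a5, an aflatoxin aldehyde reductase, had 7071 with antagomir-122 against 6044 with mm-antagomir-122 on its brighter probe set (0.23), which can cross-hybridise, and 5152 with antagomir-122 against 5567 with mm-antagomir-122 on the other (-0.11), so it was not given a direction.

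Of the Dhrs genes 5 of 7 were below 0, against 49.6% of all measured genes and 59.6% of the brightest 3334. Their median was -0.22, and Dhrs4 was the member past 1.5-fold. The median was -0.22 with quantile normalization and with the signal-trend correction, and 0.05 on the hybridization control scale. Dhrs1 had 2226 in the antagomir-122 pool and 2978 in the mm-antagomir-122 pool (-0.42). Dhrs11, Dhrs7 and Dhrs13 had -0.24, -0.22 and -0.15. On the higher side were Dhrs3, given above, and Dhrs7b, a reductase of ether lipid synthesis, at 617 with antagomir-122 against 534 with mm-antagomir-122 (0.21).

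**Figure D3:**
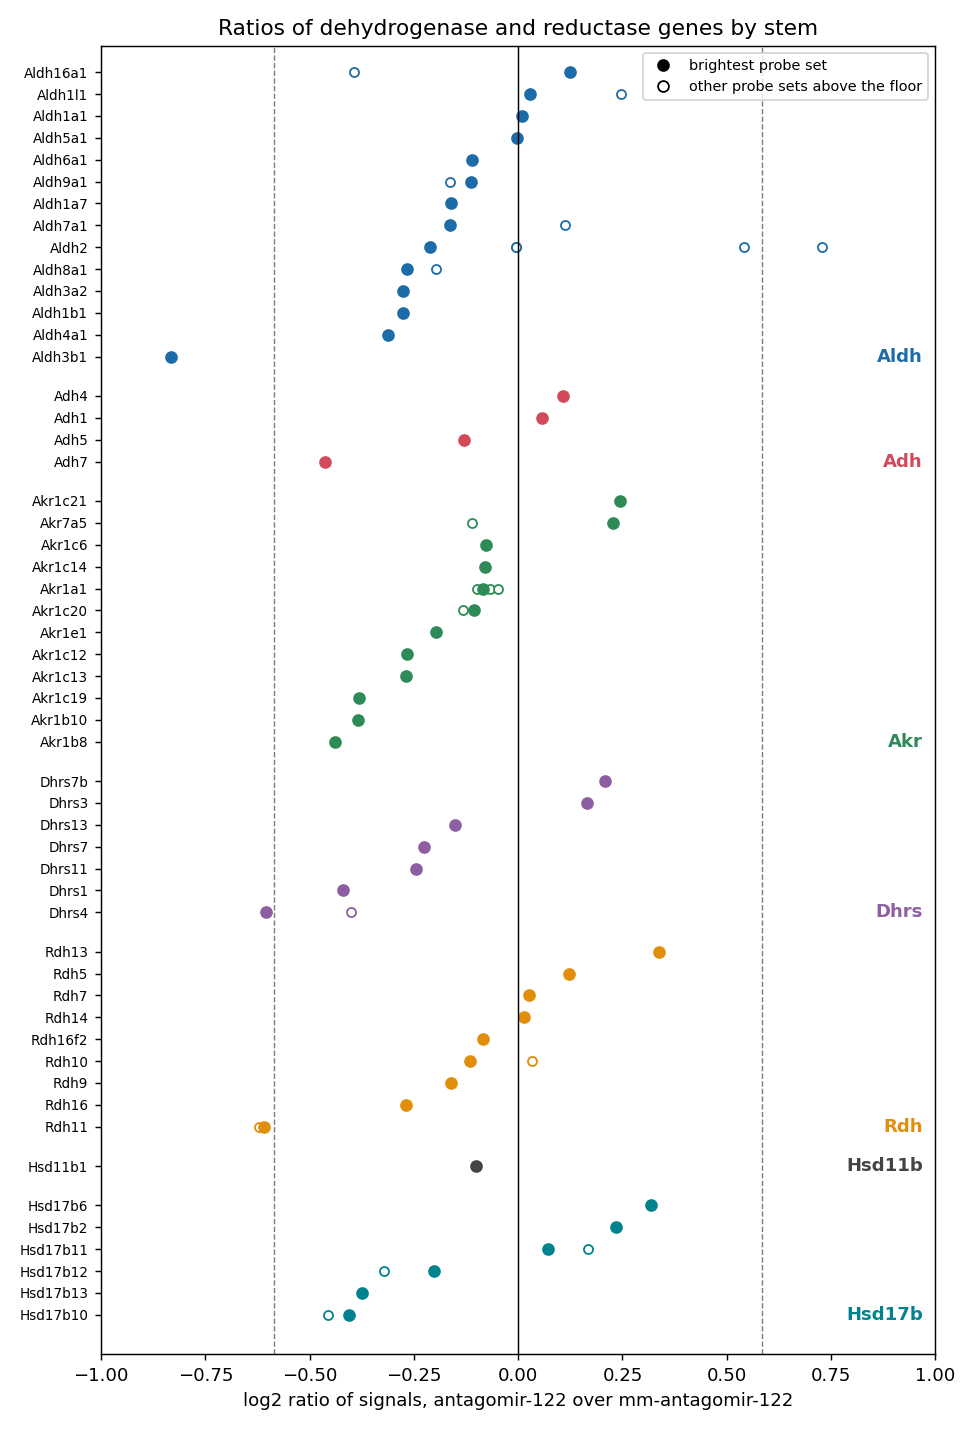
Log2 ratio (antagomir-122 over mm-antagomir-122, horizontal axis) of each of the 53 measured members, grouped and coloured by stem, with the brightest probe set filled and other probe sets above the floor open. Dashed lines mark 1.5-fold. Most filled points lie between the dashed lines and a little left of 0.

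The steroid-converting genes lay on both sides of 0. Hsd11b1, which regenerates active glucocorticoid in liver, had 18431 in the antagomir-122 pool and 19763 in the mm-antagomir-122 pool (-0.10). Hsd11b2, which inactivates glucocorticoid, mainly in kidney, was under the floor. None of the 12 measured genes of glucocorticoid activation and response was past 1.5-fold, and their median was -0.02. Serpina6, the plasma carrier of glucocorticoid, had 0.16 and Pck1 -0.07.

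Of the 6 measured Hsd17b genes, 3 were above 0 and 3 below as deposited. Hsd17b6, which acts on androgens, had 11293 in the antagomir-122 pool and 9055 in the mm-antagomir-122 pool (0.32). Hsd17b2, which inactivates estradiol and testosterone, had 4824 with antagomir-122 against 4103 with mm-antagomir-122 (0.23), and Hsd17b11, a lipid droplet protein, 11689 with antagomir-122 against 11124 with mm-antagomir-122 (0.07). On the lower side, the mitochondrial Hsd17b10, also needed for mitochondrial tRNA processing, had 4986 with antagomir-122 against 6601 with mm-antagomir-122 (-0.40), and -0.46 on its second probe set. Hsd17b13, another lipid droplet protein, had 4974 with antagomir-122 against 6449 with mm-antagomir-122 (-0.37). Hsd17b12, the ketoacyl reductase of fatty acid elongation, had -0.20 and -0.32 on its probe sets. The stem median of -0.07 turned to 0.01 with quantile normalization and 0.0046 with the signal-trend correction.

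Among 7 measured steroid genes outside the stems, 1 was at least 1.5-fold higher and 1 lower. Cyp17a1, the steroid hydroxylase and lyase, had 3091 in the antagomir-122 pool and 1497 in the mm-antagomir-122 pool, 2.06-fold higher on 1 probe set. Srd5a3, a polyprenol reductase of dolichol synthesis, had 312 with antagomir-122 against 484 with mm-antagomir-122 on its brightest probe set (1.55-fold lower), and its 4 probe sets lay between -0.79 and -0.59. Hsd3b7 and Cyb5a had -0.15 and -0.0014.

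Grouped by the place of the enzyme in the cell, the medians were -0.21 for 7 mitochondrial members, -0.12 for 20 cytosolic members and -0.10 for 17 members of the endoplasmic reticulum or lipid droplets. The ranges overlapped widely, from -0.40 to 0.34, from -0.46 to 0.25 and from -0.61 to 0.32, in the same order. The mitochondrial median was the value of Aldh2 on its brightest probe set, a gene that could not be given a direction. The mean over the probe sets of Aldh2 was 0.21. The peroxisomal members Dhrs4 and Dhrs7b lay on opposite sides of 0.

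Related dehydrogenases and reductases that carry other names also lay low. Of 17 measured, 15 were below 0 as deposited, against 49.6% of all measured genes and 59.6% of the brightest 3334. Of the 17, 0 were past 1.5-fold in either direction, and the median was -0.24. The hybridization control scale adds 0.27 to each of these ratios. The extremes were Bdh1, the ketone body enzyme, at -0.50 and Wwox at 0.36, both named after their values were seen. Qdpr and Hadh had -0.11 and -0.02. A pair of response programmes known to include members of these families were not past 1.5-fold at any measured gene. The NRF2 list had a median of -0.06 over 10 genes and ran from -0.58 to 0.26, with Gstm1 at 0.03 and Ephx1 at -0.10. The aryl hydrocarbon receptor list had a median of 0.13 over 4 genes and ran from -0.06 to 0.40, with Cyp1a2 at 0.15 and Tiparp at -0.06.

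**Figure D4:**
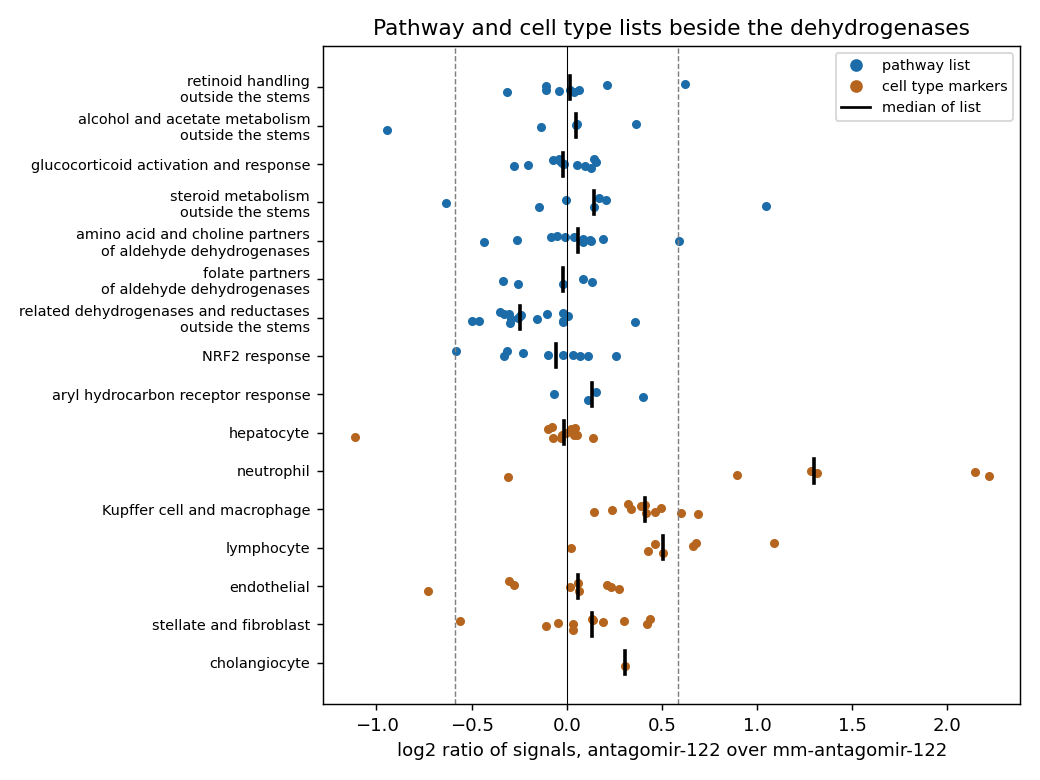
Log2 ratio (antagomir-122 over mm-antagomir-122, horizontal axis) of each measured gene in 9 pathway lists (blue) and 7 lists of cell type markers (brown), with a bar at each list's median and dashed lines at 1.5-fold. The measured neutrophil markers other than Elane (-0.31), and all measured macrophage and lymphocyte markers, lie to the right of 0, while the pathway medians lie between -0.24 and 0.14.

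**Figure D5:**
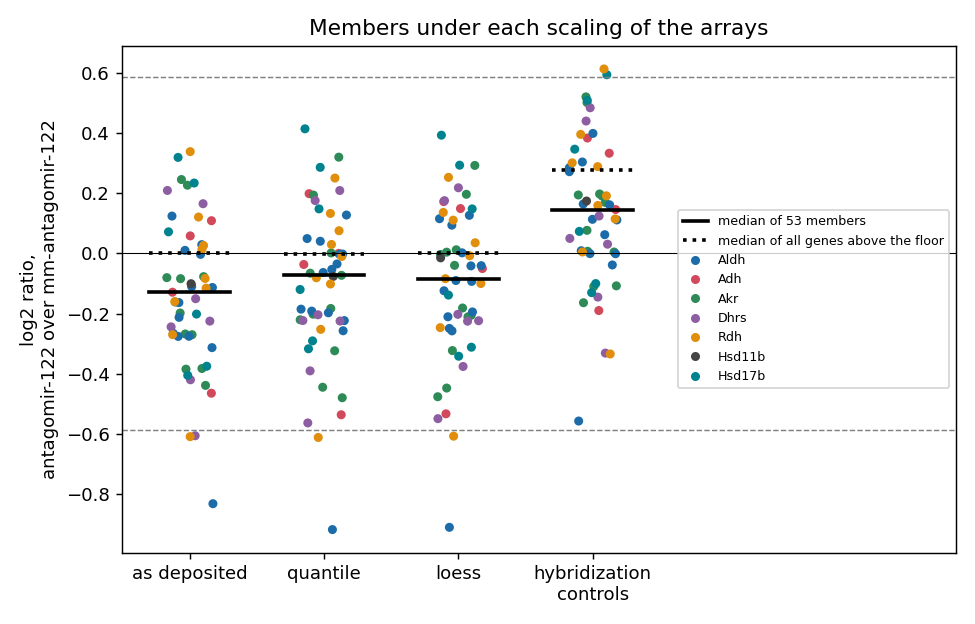
Log2 ratios (vertical axis) of the 53 measured members as deposited and after 3 other scalings, with the members' median as a solid line and that of all measured genes as a dotted line. The members' median is -0.13, -0.07, -0.08 and 0.15 from left to right, under the dotted line each time. The last scaling shifts every ratio alike and so keeps the order of both medians.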

How the data were processed

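Liver RNA pools were read on 1 single-colour array each. The authors deposited 1 linear intensity for each probe set. It came from MAS5, per the submitters' processing notes, with no version given. The 2% trimmed mean was 500.0 on both arrays, so the values had been scaled alike. Of 45101 probe sets, 64 were controls and 34945 had 1 gene in the platform annotation, which can be old. A check of symbols by gene ID against RefSeq (GRCm38.p6) changed 0 of them. Probe sets with several genes were not used for members.

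Log2 ratios were taken with no pseudocount. Background shares cover all 10003 genes above the floor. Calculations used Python 3.11.15, numpy 2.4.6, pandas 2.3.3 and statsmodels 0.14.6, and were tested on simulated data. Alternatives were quantile normalization, loess (span 0.3, called the signal-trend correction), scaling on 18 hybridization control probe sets, other floors, a pseudocount of 37.8, signals floored at 238, the mean over probe sets, no suffixed probe sets, and thresholds of 1.4-fold and 2-fold. Every measured member was named, with both signals for the 12 largest ratios, each stem's extremes and brightest gene, and probe sets that disagreed. From each pathway list the genes past 1.5-fold and the 2 brightest were named. The members and lists were chosen with earlier results of these data known, and the grouping by place and reaction after the values were seen. Detection calls and array replicates were not used here.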

Additional observations from a re-analysis of the deposited data

How the results depend on the processing

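No member was at least 1.5-fold higher as deposited, and this count of 0 was unchanged by quantile normalization, loess, the 80th percentile floor, the pseudocount, flooring of signals, the mean over probe sets, leaving out suffixed probe sets, and thresholds of 1.4-fold and 2-fold. It was 2 on the hybridization control scale (Rdh13 and Hsd17b6), 2 with the floor at the 40th percentile (Aldh1l2 and Aldh3b2) and 5 with no floor. The count of 3 lower members was 0 on the hybridization control scale, 5 with no floor and 0 at 2-fold. It stayed at 2 or 3 under the other alternatives with the threshold of 1.5-fold, with Rdh11 in each of them. The members' median ran from -0.15 to -0.07 under the alternatives other than the hybridization control scale, where it was 0.15. Ratios of single members moved by more than the probe set SD of 0.28 in 2 cases. Aldh2 had 0.21 as a mean over probe sets and Akr7a5 had -0.11 without suffixed probe sets. Some smaller shifts also crossed 0. The hybridization control scale adds 0.27, just under that SD, and left 13 members below 0 against 37 as deposited. Aldh16a1 had -0.14 as a mean over probe sets and Rdh10 had 0.03 without suffixed ones. Akr1a1, Akr1c6 and Aldh5a1 were slightly above 0 after loess. For Aldh2 and Akr7a5 the probe sets in use changed, and why their probe sets differ was not tested. Signals near the floor limit Aldh3b1, Akr1b10, Adh7 and Rdh13, and the top of the range limits the 8 members above 16000. No paired analysis was possible because each group had 1 array. Leaving out a replicate was not possible for the same reason.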

Other observations

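Of the 72 members 19 were under the floor, 10 with a ratio above 0 and 9 below, and for 17 of them both signals were under it. None had a signal 1.5-fold above the floor on either array. Among these dim genes 3 are singled out after their values were seen. Aldh18a1, which starts proline synthesis from glutamate, had 271 in the antagomir-122 pool and 190.5 in the mm-antagomir-122 pool on its brightest probe set, and all 5 of its probe sets were higher in the antagomir-122 pool, by 0.26 to 2.02 on the log2 scale. Aldh1l2, the mitochondrial form of the folate enzyme, had 235 with antagomir-122 against 148 with mm-antagomir-122. Aldh3b2 had 261 with antagomir-122 against 151 with mm-antagomir-122. At such signals a difference cannot be told from background.

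Several members are neighbours in the mouse genome, and neighbours did not share a direction throughout. In the Adh cluster of chromosome 3, Adh7 lay at -0.46 and Adh4 at 0.11. In the Akr1c cluster of chromosome 13, Akr1c21 at 0.25 lay beside members from -0.38 to -0.08. On chromosome 10, Hsd17b6 at 0.32 lay beside Rdh16 at -0.27. On chromosome 14, Dhrs4 and Dhrs1 were both low, at -0.61 and -0.42. On chromosome 5, the lipid droplet genes Hsd17b13 and Hsd17b11 lay at -0.37 and 0.07. Akr1b8 and Akr1b10 on chromosome 6 were both low, at -0.44 and -0.38. Dhrs7b and Aldh3a2 on chromosome 11 lay at 0.21 and -0.28, and Aldh1a1 and Aldh1a7 on chromosome 19 at 0.01 and -0.16. Akr7a5, whose probe sets disagreed, and Aldh4a1 on chromosome 4 lay at 0.23 and -0.31.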
